A study of Mus musculus with 15 samples.

Results

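The matrix genes Postn, Tnc, Fn1 and Fbln2 were followed through 15 single cells of mouse inguinal white fat. They were chosen by name, and each had 1 row, so that they made up 4 of the 8446 gene rows of the table. The cells carried the Tomato reporter. They came from adult C57BL/6 mice of the genotype Prrx1-CreERT;Tomato, which had received tamoxifen at 2 mg per 30 g once a day for 3 days. In these mice the Cre recombinase is driven by Prrx1, a homeobox gene of mesenchymal cells, and becomes active with tamoxifen, so that the reporter marks cells in which Prrx1 was active at that time, and their descendants. Minced fat was digested with type II collagenase at 2 mg/ml for 1 h at 37 °C, Tomato+ cells were sorted, and single cells were picked under a fluorescence microscope. The cells, numbered 1 to 15, make a single group. Since no label says which mouse a cell came from, they count as 1 sample, and neither p-values nor standard errors are given.

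Postn encodes periostin and Tnc encodes tenascin-C, secreted matricellular proteins that bind fibronectin and collagens and signal to cells through integrins. Both are low in most resting adult tissues and are known from development, wound repair and fibrosis. Fn1 encodes fibronectin, the adhesive glycoprotein that cells assemble into fibrils and on which other matrix proteins are laid down. Fbln2 encodes fibulin-2, which binds fibronectin, elastic fibre proteins and basement membrane proteins. In cultured mouse preadipocytes a fibronectin matrix is known to hold back fat differentiation.

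On GRCm38 with the GENCODE M21 annotation, Postn lies on chromosome 3 at 54361109 to 54391037 on the plus strand, and its longest coding transcript has 22 exons and 3205 nt. Tnc lies on chromosome 4 at 63959785 to 64047015 on the minus strand, with 26 exons and 7106 nt. Fn1 lies on chromosome 1 at 71585520 to 71653200 on the minus strand, with 46 exons and 8315 nt. Fbln2 lies on chromosome 6 at 91212455 to 91272540 on the plus strand, with 18 exons and 4786 nt. An antisense gene, Apol7d, overlaps Fn1, and 8030451A03Rik overlaps Tnc on the other strand. Neither has a row, and since no source used here states whether strand was used in counting, reads of these partners cannot be told apart from those of Fn1 and Tnc.

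The promoters of the pair that ranked most alike over the cells, Postn and Tnc, are shown with that of Fbln2. They are RefSeq windows on GRCm38.p6, from 250 bases before the annotated start to 50 after it, 5′ to 3′ on the gene's strand. Capitals mark the TATA box letters TATATAA, searched on both strands. The windows are Postn chr3:54360857-54361156 (plus strand), Tnc chr4:64046887-64047186 (minus strand) and Fbln2 chr6:91212514-91212813 (plus strand).
Postn: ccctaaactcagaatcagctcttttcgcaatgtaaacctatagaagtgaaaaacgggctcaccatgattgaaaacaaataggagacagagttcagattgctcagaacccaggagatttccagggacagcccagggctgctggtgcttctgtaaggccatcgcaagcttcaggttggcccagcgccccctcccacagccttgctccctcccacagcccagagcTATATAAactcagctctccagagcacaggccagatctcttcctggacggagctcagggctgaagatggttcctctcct
Tnc: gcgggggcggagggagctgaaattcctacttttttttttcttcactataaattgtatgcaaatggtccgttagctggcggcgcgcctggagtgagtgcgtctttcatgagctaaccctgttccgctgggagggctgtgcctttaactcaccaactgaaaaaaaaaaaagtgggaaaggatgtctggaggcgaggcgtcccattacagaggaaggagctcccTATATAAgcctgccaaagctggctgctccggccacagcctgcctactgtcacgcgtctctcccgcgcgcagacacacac
Fbln2: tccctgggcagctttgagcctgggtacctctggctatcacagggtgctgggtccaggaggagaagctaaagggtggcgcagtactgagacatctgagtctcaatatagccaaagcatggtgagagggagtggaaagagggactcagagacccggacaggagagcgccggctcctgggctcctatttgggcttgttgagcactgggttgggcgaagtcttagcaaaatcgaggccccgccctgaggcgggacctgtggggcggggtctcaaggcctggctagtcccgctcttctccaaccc
The letters stood 28 bases before the start in the Postn window and 29 bases before it in the Tnc window. The Fbln2 window did not hold them, nor did the window of a second annotated start of Postn or of Tnc. The second Tnc window overlaps the one shown and ends directly before these letters. Over all 32817 promoter windows of this length, 3.25% held TATATAA. The GC box letters GGGCGG, on either strand, were found 2 times in the Fbln2 window and 1 time in each of the Tnc windows. In the Tnc windows, which overlap, this was the same site. Of all windows, 35.6% held these letters. A match of letters is a description of the window and says nothing about the factors that act there.

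Levels are given as log2(FPKM + 1), the scale on which the values were deposited. FPKM counts fragments relative to transcript length and library total. The base of the logarithm was inferred from the values. Detection means at least 1 FPKM, which is 1 on this scale. The columns had been quantile-normalized, so each cell had the same number of detected rows, 4369, and read depth is unknown. Stromal progenitor markers were present: Vim, Lum, Cd34 and Serping1 were detected in 15 of 15 cells and Pdgfra in 14. Cell 13 stood apart. Its median Spearman correlation with the other cells was 0.40, the lowest of all, and its mean over 11 stromal progenitor genes was 5.73, also the lowest. Its Prrx1 value was 0.43, which was not particular to it: cells 12 and 3 were at 0.22 and 0.68. Its mean over 6 mural (pericyte and smooth muscle) genes was 5.48, against 0.32 to 2.43 in the others apart from cell 5 at 8.14. Its mean over 6 cell cycle genes was 9.07, against 0.54 to 3.09 in the other 14 cells, and the endothelial and mural gene Esam was at 10.90. Calls and list correlations that include cell 13 are therefore given with and without it, and a gene whose call was lost without it is named.

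Postn was the most uneven of the set. Its lowest value was 0.90 in cell 2, its median 3.87 and its highest 12.98 in cell 9. Cells 9, 11 and 13 were at 12.98, 11.88 and 11.58, and the next cell, 14, was at 6.46. The other 12 cells ran from 0.90 to 6.46 with a median of 2.92, which left a gap of 5.12 between the groups. In FPKM, the lowest of the 3 cells was 35.3-fold above the highest of the others. In FPKM, cell 9 was at 8054, cell 11 at 3767, cell 13 at 3068 and cell 14 at 87.0. Postn was the 3rd highest row of cell 9, the 13th of cell 11 and the 18th of cell 13. The periostin transcript was thus among the most abundant of 3 cells and at a low or middle level in the rest. Over all cells, 14 of 15 reached 1 FPKM (93.3%, exact Clopper-Pearson 95% interval 68.1 to 99.8%, counting error only) and 10 reached 5 FPKM. The SD of Postn over the cells, 4.01, was higher than that of 99.9% of all rows.

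**Figure D1:**
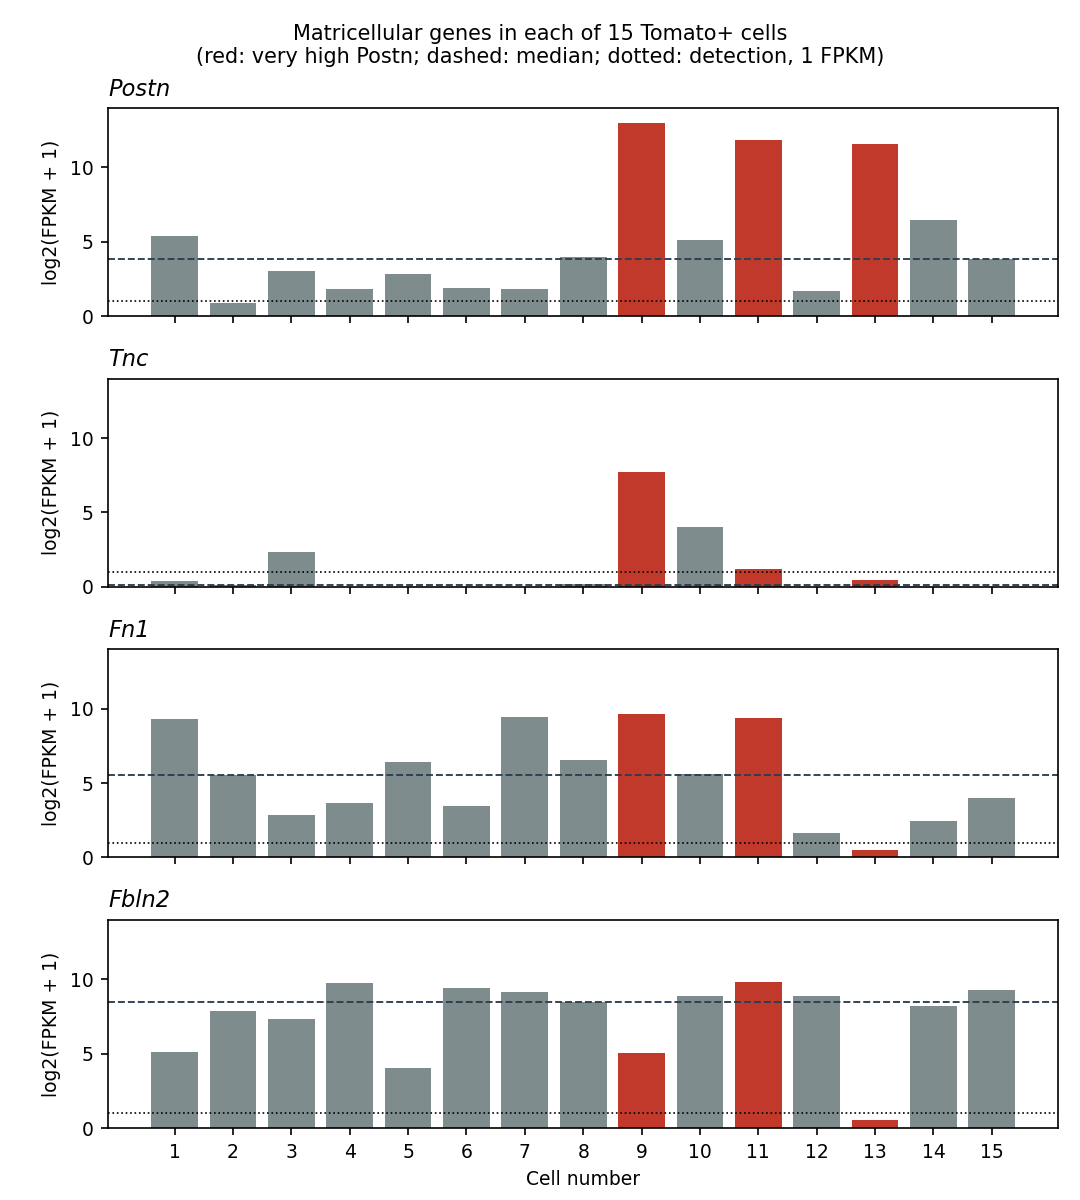
Bars give log2(FPKM + 1) of Postn, Tnc, Fn1 and Fbln2 (one panel each) in cells 1 to 15, red bars are the 3 cells with very high Postn, the dashed line is the median over 15 cells and the dotted line is 1 FPKM. Postn is at 11.58 or more in cells 9, 11 and 13 and at 6.46 or less elsewhere, while Fbln2 is above 4 in all cells but cell 13.

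Tnc was the least often detected. It reached 1 FPKM in 4 of 15 cells (26.7%, exact 95% interval 7.79 to 55.1%). Those were cell 9 at 7.73, cell 10 at 4.0, cell 3 at 2.35 and cell 11 at 1.22. The lowest value was 0, the median 0.12 and the highest 7.73, and 6 cells were listed at 0. Tenascin-C transcript was therefore plainly present in cell 9, where it was at 211 FPKM, and in cell 10, at 14.96 FPKM, and at 4.10 FPKM or less in the other cells. Cell 9 was also the cell with the most Postn and the most Fn1.

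Fn1 was spread widely. Its lowest value was 0.50 in cell 13, its median 5.54 and its highest 9.65 in cell 9. It was detected in 14 of 15 cells, and 12 reached 5 FPKM. Cells 1, 7, 9 and 11 were at 9.31, 9.47, 9.65 and 9.35. The next cell, 8, was at 6.57, a gap of 2.74, so 4 cells shared a narrow high level of fibronectin transcript. Among them were cells 9 and 11, with very high Postn, but cell 7 had Postn at 1.86, and cell 13, with Postn at 11.58, had the least Fn1.

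Fbln2 was the most evenly high. Its lowest value was 0.52 in cell 13, its median 8.46 and its highest 9.82 in cell 11. It was detected in 14 of 15 cells, all of which also reached 5 FPKM. The fibulin-2 transcript lay between 7.35 and 9.82 in 11 of the 15 cells, and cells 1, 5 and 9, at 5.13, 4.02 and 5.06, lay between these and cell 13. Its median stood above those of 96.9% of all rows, against 85.0% for Fn1, 75.5% for Postn and 19.4% for Tnc.

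On this per-length scale the order of the medians was Fbln2, Fn1, Postn and Tnc. Fbln2 was above Fn1 in 11 of 15 cells and above Postn in 11. Fn1 was above Postn in 9 cells and below it in 6, with a median difference Fn1 minus Postn of 0.54, well inside the SD of either gene, so these neighbours did not differ beyond their spread. Tnc was below Postn and Fn1 in all 15 cells and below Fbln2 in 14, the exception being cell 9. The libraries were read from the 3′ end while FPKM divides by transcript length, which lowers long genes such as Tnc and Fn1. With length multiplied back, the medians were 10.71 for Fbln2, 8.56 for Fn1, 5.48 for Postn and 0.68 for Tnc, in the same order.

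Compared with each other over the 15 cells, Postn and Tnc had the highest Spearman correlation, 0.69 (Pearson 0.56). It was 0.67 without cell 13 and 0.58 without cells 9 and 11, the cells farthest from the median of Postn, where Pearson fell to 0.16. Because 11 of 15 Tnc values were below 1 FPKM, the ranks rest in part on values under the detection level. When those were tied at 0, a setting chosen after seeing the data, the correlation was 0.50. Postn and Fn1 had 0.26 over all cells, 0.43 without cell 13 and -0.09 without cells 9 and 11, so the relation rests on those cells. Postn and Fbln2 had -0.29 (Pearson -0.46) and -0.20 without cell 13. Fn1 and Fbln2 had 0.05, and -0.17 without cell 13. Tnc had 0.25 with Fn1 and -0.39 with Fbln2, and 0.38 and -0.38 without cell 13. The points share the sort, the library kit and the normalization, and these 6 correlations are descriptions of 15 cells.

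**Figure D2:**
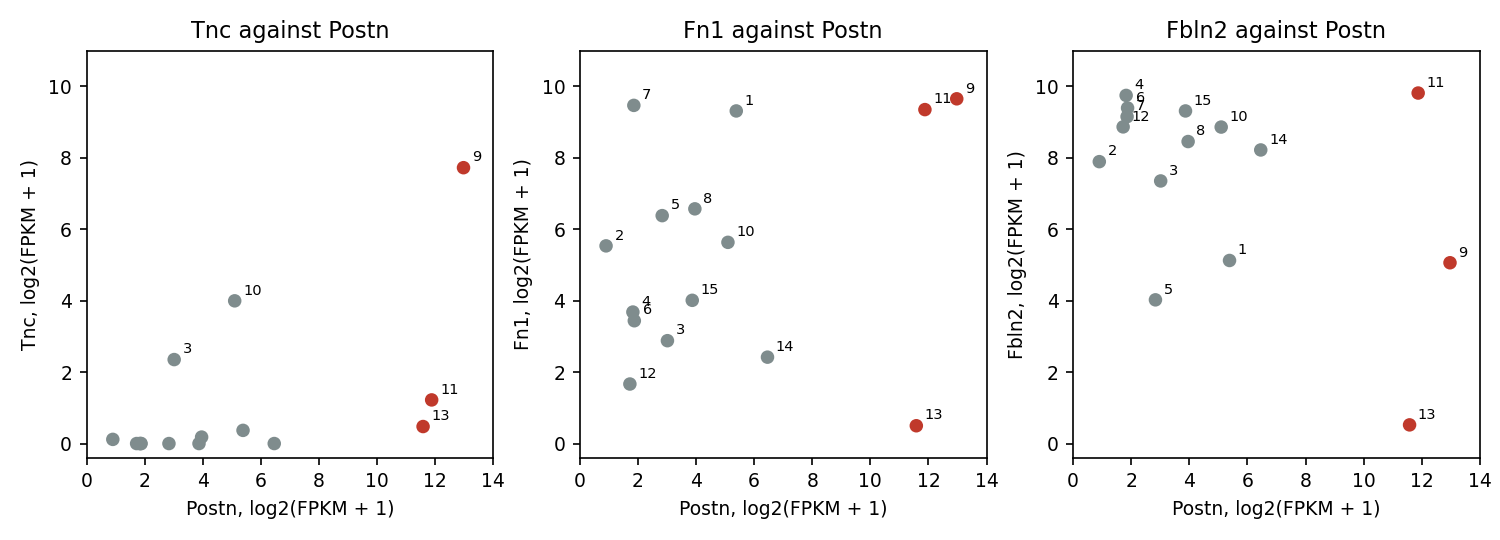
Each point is 1 of 15 cells, with Postn on the x axis and Tnc, Fn1 or Fbln2 on the y axis, all in log2(FPKM + 1), and red points are the cells with very high Postn (in the Tnc panel, cell numbers are given at 1 FPKM or more and for red points). Cells 9 and 11 are high for Postn and Fn1 together, while cell 13 is high for Postn at 0.50 for Fn1 and 0.52 for Fbln2.

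Cells 9, 11 and 13, chosen by their Postn level, were set against the other 12 cells for all other genes. A gene was called higher or lower where the medians of the groups differed by 2 or more on the log2 scale, a fold of about 4. Of 7425 rows detected in at least 3 cells, 16.5% were called higher and 9.29% lower. This limit lets in genes detected mostly in the very high cells. Among rows detected in at least 8 cells, 659 were called higher and 663 lower. Without cell 13, 18.6% of 7182 rows were called higher and 8.41% lower. The median of the very high cells is then the mean of cells 9 and 11, so a high value in only 1 of them can make a call. Fn1 was called higher, with a median of 9.35 against 4.77, a difference of 4.58, and of 4.73 without cell 13. Fbln2 was called lower, with 5.06 against 8.66, a difference of -3.60, but of -1.22 without cell 13, which ends the call. Tnc was not called over the 3 cells, with 1.22 against 0.00, and was called without cell 13, with 4.47 against 0.00. That call rests on cell 9, at 7.73, with cell 11 at 1.22. Outside the very high cells Tnc was detected in cells 3 and 10 only, so it passed the limit of 3 cells through cells 9 and 11. The 3 very high cells were not alike for the rest of the set: cell 9 was high in Tnc and Fn1 and low in Fbln2, cell 11 was high in Fn1 and Fbln2 with Tnc near the detection level, and cell 13 had Tnc, Fn1 and Fbln2 all below 1 FPKM.

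Genes whose values did not overlap between the 3 cells and the other 12 were rare: 0.418% of the 7425 rows were higher in this way and 0.633% lower. The largest differences among the higher were for Ints11, a subunit of the Integrator complex (7.25 against 0.11), Csnk1d, a casein kinase (7.75 against 1.39), Pqlc1 (5.84 against 0.01), Zfpl1 (6.16 against 0.36) and Naa35, a subunit of an N-terminal acetyltransferase (7.58 against 1.98). Ints11 and Zfpl1 only just cleared the other cells, the highest of which were at 6.68 and 5.80. Pqlc1 was detected in cells 9, 11 and 13 alone, so it passed the limit of detection in 3 cells only through the cells where it is high. Among the lower, Hsd11b1, which regenerates active glucocorticoid, was at 0.68 to 1.84 in the very high cells and 6.11 to 11.88 in the others. Adh1, an alcohol dehydrogenase that also acts on retinol, was at 0.93 to 1.80 against 2.31 to 12.27. Cxcl13, a B cell chemokine, had a median of 1.64 against 8.09, Tmem205 0.00 against 6.42, and Gstt1, a glutathione transferase, 0.75 against 7.15.

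Without cell 13, 1.32% of rows were higher in cells 9 and 11 with no overlap and 1.49% lower. The largest difference was that of Thbs4, another matricellular gene, which encodes thrombospondin-4. It was at 11.13 in cell 9 and 8.49 in cell 11, at most 4.79 in the other 12 cells, and 0.13 in cell 13. Ptn, the heparin-binding growth factor pleiotrophin, had a median of 9.32 against 1.63, and Itm2a, a membrane protein gene, 11.68 against 5.00. Both were low in cell 13, at 0.21 and 3.29. Eif2d, an initiation factor gene, had 7.10 against 0.44, and Ints11 6.97 against 0.11. Hsd11b1, Adh1 and Cxcl13 again led the lower genes, with Dnajc19 and Tomm22, which act in mitochondrial protein import (0.98 against 7.43 and 1.20 against 7.63).

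Among 12 other matricellular genes tested, 3 were called higher in the 3 cells and 1 lower, beside 16.5% and 9.29% of all rows. Their median difference was -0.06 beside 0.00 over all rows. Without cell 13, 5 were higher and 1 lower, beside 18.6% and 8.41% of all rows, with a median difference of 1.25 beside 0.22 over all rows. Thbs1, the gene called lower over the 3 cells (-2.09), was then at 0.44, and Ccn1 (-3.28) was called lower in its place. Thbs4 led, followed by Ccn2 (connective tissue growth factor), which was at 9.55 in cell 9 but 2.74 in cell 11. Ccn4 was at 5.08 and 4.12 in cells 9 and 11, and cells 8 and 12 reached 4.12 and 3.85. Tgfbi, which encodes the protein most similar to periostin, was at 6.53 and 7.54 in cells 9 and 11 and 0.26 in cell 13, and cell 10 had more, 9.06. Cell 13 detected 2 of the 12 genes, Sparcl1 and Ccn1, while the other cells detected 7 to 11.

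Fibulins and elastic fibre genes, the partners of fibulin-2, went in both directions. Of 17 tested, 3 were called higher and 5 lower in the 3 cells (median difference 0.49), and 9 higher and 4 lower without cell 13 (median difference 2.08), beside the 18.6% and 8.41% of all rows. Eln was no longer called without cell 13. Fbn2, called higher only without cell 13 (2.98), was detected in cells 7, 9 and 11 alone. It thus passed the limit of detection in 3 cells only through cells 9 and 11. Mfap4, also called higher only without cell 13, was at 9.04 in cell 9 but 0.66 in cell 11. Fbln7 was at 6.89 and 8.08 in cells 9 and 11, but also at 7.04 in cell 3 and 6.44 in cell 8. Fbln5, which guides elastic fibre assembly, was at 0.13 in both cells, against up to 6.70 elsewhere, and was also below 1 FPKM in cells 5, 10, 13, 14 and 15. Efemp1, also a fibulin, was at 2.90 and 1.61 against a median of 7.69 over all 15 cells. Mfap2, a microfibril gene, was at 9.71 and 10.81, above all other cells. Cell 13 detected 4 of these 17 genes, while the other cells detected 10 to 15.

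**Figure D3:**
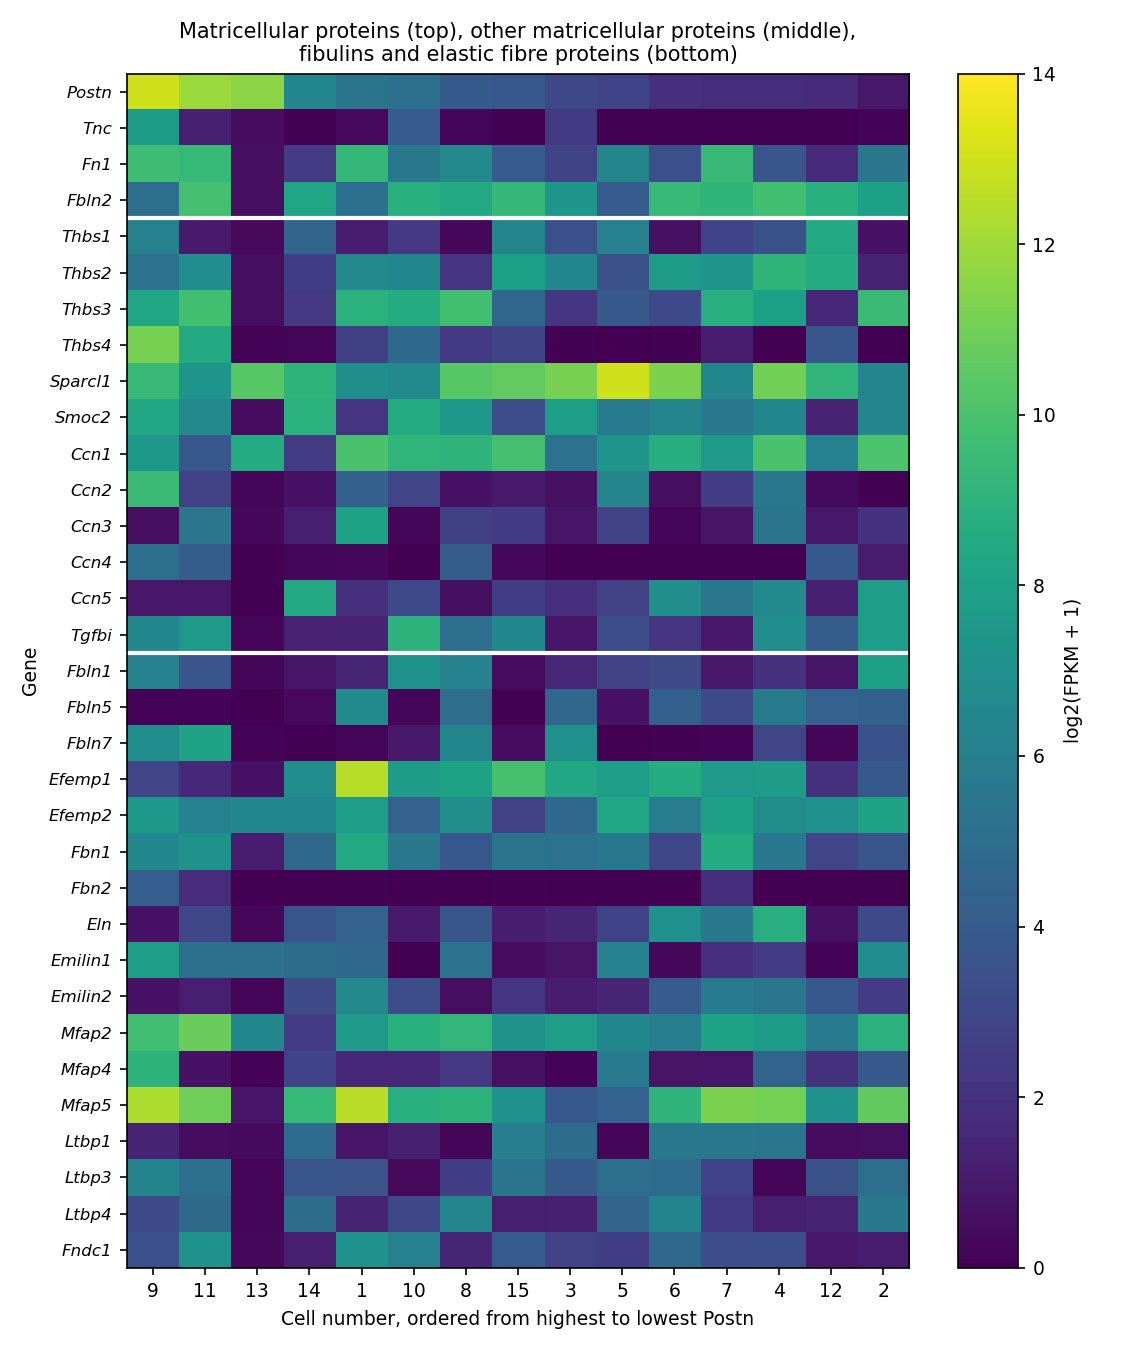
Colour gives log2(FPKM + 1) of the 4 genes (top), 12 other matricellular genes (middle) and 17 fibulin and elastic fibre genes (bottom) in 15 cells, ordered from the highest to the lowest Postn. Thbs4 is bright in cells 9 and 11 (11.13 and 8.49) and dark in cell 13 (0.13), where most rows are dark.

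Of 11 integrin, syndecan and other matrix receptor genes tested, 2 were called higher and 2 lower (median difference 0.36), and 2 and 1 without cell 13 (0.57), where Itgb5 was no longer called. Itga11, a collagen receptor subunit, was at 4.67 in cell 9 and 5.12 in cell 11, and otherwise reached 1 FPKM in cell 1 alone, at 2.40. Itgav, a subunit of receptors for periostin and fibronectin, was at 6.13, 7.96 and 6.99 in cells 9, 11 and 13, within the range of the others, 1.12 to 8.50. Itgb1, which pairs with many of them, was detected in all 15 cells with a difference of 0.84. Sdc4, a heparan sulphate co-receptor for fibronectin, and Itgb5 were called lower, with differences of -3.14 and -2.78, and of -2.02 and -0.23 without cell 13. Itgb5 was at 5.30 in cell 9 and 0.19 in cell 11. Among 13 focal adhesion and cytoskeleton genes, 2 were higher (Tpm2 5.96 and Pxn 2.83) and 1 lower (Lims1 -4.60), and 4 and 1 without cell 13. Myl9, called higher only without cell 13, was at 7.08 in cell 9 and 0.00 in cell 11. Pxn, which encodes paxillin, was at 3.15 and 2.92 in cells 9 and 11 and at most 1.10 elsewhere. Pxn and Itga11 were each detected in 3 cells, so they passed the limit of detection in 3 cells only through cells 9 and 11. Over all rows 16.5% were higher and 9.29% lower, and 18.6% and 8.41% without cell 13.

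Collagens, the fibrils to which periostin and tenascin-C bind, had a median difference of 0.98 over 13 genes, with 2 called higher and 1 lower, and of 1.17 with 3 and 1 without cell 13. Counts in this paragraph stand beside 16.5% and 9.29% of all rows, and 18.6% and 8.41% without cell 13. Col12a1, a collagen of the fibril surface, was at 8.64 and 6.66 in cells 9 and 11 and 4.90 in cell 13, and cell 7 was higher at 8.82. Col16a1 had a difference of 3.45, and Col15a1 one of -4.67. Col8a1, which was outside the filter, was detected in cells 9 and 11 only, at 8.60 and 4.84. Of 15 genes of collagen processing, 2 were higher, Loxl3 (4.52) and Plod3 (2.44), and 2 lower, Pcolce2 (-4.70) and Adamts2 (-3.09). Without cell 13, 3 were higher and 1 lower, and Adamts2 was at -1.68 and no longer called. Loxl3, a lysyl oxidase that crosslinks collagen, was at 6.66, 4.83 and 2.88 in cells 9, 11 and 13, and the highest of the others, cell 7, was at 3.54. Among 10 proteoglycan genes, Aspn and Vcan were higher (4.94 and 2.47) and Prelp, Podn and Has1 lower (-4.80, -3.78 and -3.54). Without cell 13, Has1 was no longer called and its difference turned to 1.17. Aspn was at 12.02 and 11.08 in cells 9 and 11, against at most 8.62 in the other 12, and Prelp did not overlap between the groups (0.19 to 1.35 against 2.98 to 7.15). Has1 was highest of all in cell 9, at 10.63, and low in cells 11 and 13, at 1.21 and 0.54.

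Basement membrane genes had a median difference of -1.55 over 11 genes, with none called higher and 3 lower: Col4a1 (-4.20), Lamb2 (-3.78) and Col4a2 (-2.97). Without cell 13 the median difference was -0.65, with 4 called lower. Col4a1 was at 3.55 and 4.09 in cells 9 and 11, below all other cells, and at 7.45 in cell 13. Of 17 matrix protease and inhibitor genes, 2 were higher (Adamts4 4.41 and Plat 4.38) and 5 lower, led by Mmp3 (-5.51), Timp1 (-4.39) and Timp2 (-3.66). Without cell 13, 3 were higher and 4 lower, Timp1, Timp2 and Mmp11 were no longer called, and Adamts4 had a difference of 2.22 and Plat of 2.98. Of 15 genes of TGF-beta signalling, a known inducer of Postn, Tnc and Fn1, 3 were higher in the 3 cells (Tgif1 3.55, Tgfb3 2.93 and Acvr1 2.84) and 2 lower (Fst -4.13 and Tgfbr3 -2.18). Without cell 13, 4 were higher and none lower, with a median difference of 1.21, and Fst and Tgfbr3 were no longer called. Smad4, called higher only without cell 13, was at 4.72 in cell 11 but 0.12 in cell 9. Tgfb3 was at 5.19 and 3.37 in cells 9 and 11 and 0.47 in cell 13, and cell 4 had 4.29. Acvr1 was detected in 4 cells, and of these only cell 12 was outside the very high cells, through which it passed the limit of detection. All these counts over the 3 cells stand beside 16.5% of all rows higher and 9.29% lower, and those without cell 13 beside 18.6% and 8.41%.

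**Figure D4:**
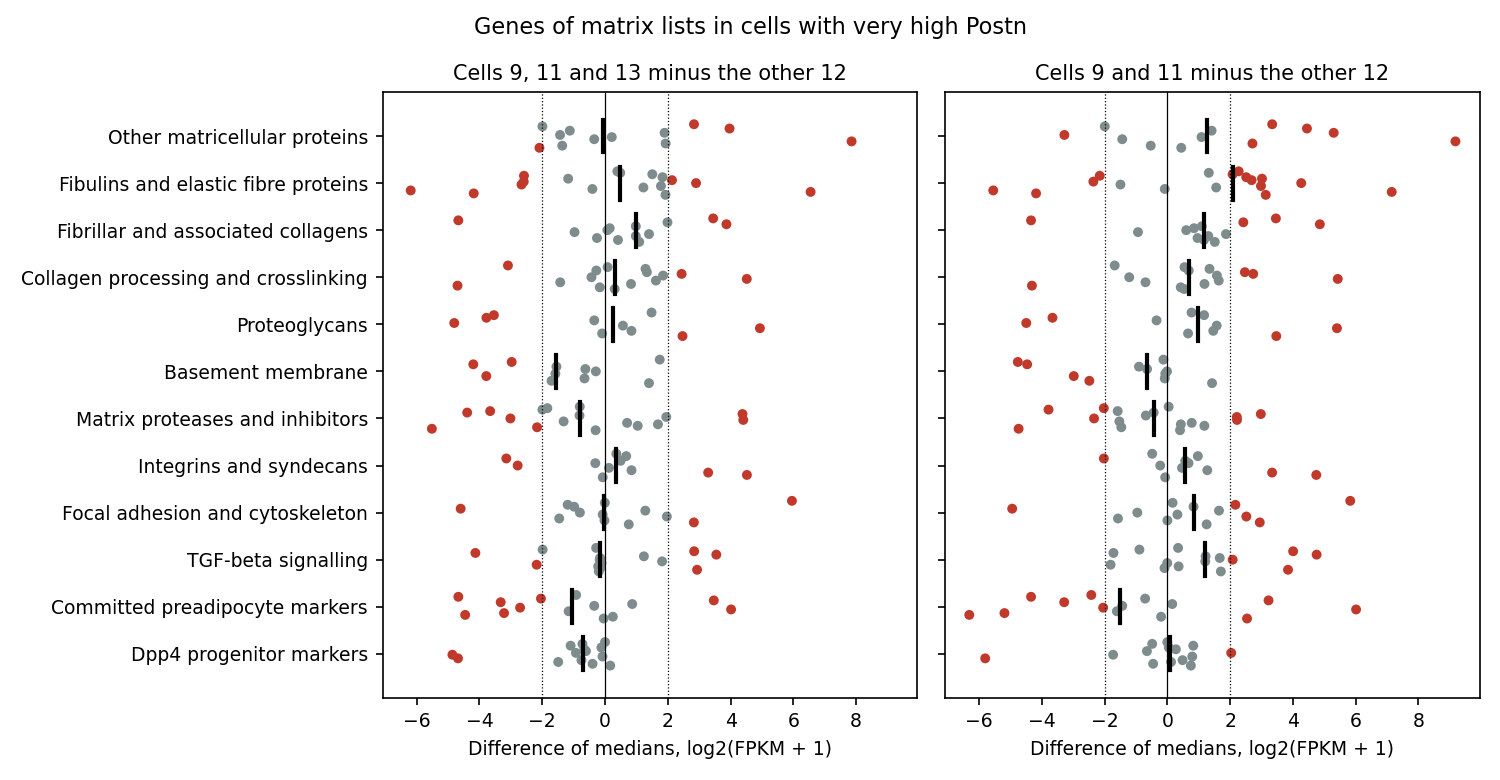
Each point is 1 gene of a list, placed at its difference of medians in log2(FPKM + 1) between the cells with very high Postn and the other 12 (left, cells 9, 11 and 13; right, cells 9 and 11), red points are at 2 or more in either direction, dotted lines mark 2 and bars give each list's median. The median of the fibulin and elastic fibre list moves from 0.49 to 2.08 when cell 13 is left out, and that of the basement membrane list lies below 0 in both panels.

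Markers of cell states were read in the same cells. Of 14 committed preadipocyte genes, 2 were called higher in the 3 cells and 6 lower (median difference -1.04), beside 16.5% and 9.29% of all rows. Without cell 13, 3 were higher and 6 lower (median difference -1.52), beside 18.6% and 8.41% of all rows, and Cxcl14 was no longer called. Fabp4, a fatty acid carrier of fat cells, was at 1.24 and 4.95 in cells 9 and 11, the lowest values of all, but at 13.69 in cell 13, the top of the scale. Lpl, lipoprotein lipase, was at 1.19, 5.13 and 6.69. Dlk1, an inhibitor of fat differentiation, was at 8.24 and 4.25 in cells 9 and 11 and at 0 in cell 13, and Vcam1 was at 6.93, 4.34 and 5.88, above all other cells. Of 14 Dpp4 progenitor genes none was higher and 2 were lower, Cd248 (-4.86) and Anxa3 (-4.68), beside 16.5% and 9.29% of all rows. Without cell 13, 1 was higher and 1 lower, beside 18.6% and 8.41% of all rows, with Cd248 no longer called. No mural gene of the 6 tested was called in either direction. Of 10 mural genes listed 6 had a row. Their summed level was 19.5 FPKM in cell 9, 1.68 FPKM in cell 11 and 2462 FPKM in cell 13, with 2, 0 and 5 of the 6 detected, against 4.04 to 47.8 FPKM in the others and 4556 in cell 5. Rgs5, Higd1b and Kcnj8, which mark pericytes, were at 0 in cell 9 and at 6.90, 10.68 and 9.43 in cell 13. The summed level of 6 cell cycle genes was 117, 4.51 and 9794 FPKM in the same cells. The very high Postn of cells 9 and 11 thus stood beside low mural values, and that of cell 13 beside high mural and cell cycle values, whose part in it was not tested. Among immune markers only Csf1r had a row, at 0.00, 0.22 and 1.78 in cells 9, 11 and 13. Of 9 Cd142 stromal genes 2 were higher (Mgp 2.96 and Meox2 2.86) and 2 lower (F3 -5.30 and Gdf10 -2.69), of 5 dermal fibroblast genes 2 were lower (Sfrp4 -2.74 and Twist2 -2.20), and of the few endothelial, Schwann, and bone and tendon genes tested none was called. Of 14 immediate early genes none was higher and 4 were lower, Ier3 (-3.89), Nr4a1 (-2.99), Jund (-2.48) and Egr1 (-2.11). Of 11 stromal progenitor genes 1 was higher, Thy1 (4.07), and 3 were lower, S100a4 (-3.28), Entpd2 (-2.45) and Serping1 (-2.08). These counts stand beside the same 16.5% and 9.29% of all rows. Beside 18.6% and 8.41% without cell 13, 2 Cd142 genes were higher and 1 lower. Of the dermal genes 1 was then higher and 1 lower, and of the immediate early genes 2 were lower. Of the stromal progenitor genes 1 was then higher and 2 were lower. Without cell 13, Gdf10, Jund and Serping1 were no longer called, and neither were Sfrp4 and Ier3, whose differences turned to 1.77 and 0.98.

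Correlates were sought for each gene over all rows detected in at least 5 cells. The highest Spearman correlation was 0.87 for Postn, 0.83 for Tnc, 0.90 for Fn1 and 0.83 for Fbln2. The highest of every one of the 5840 genes in this filter had a median of 0.84, and Postn stood above 76.8% of them, Tnc above 38.1%, Fn1 above 92.0% and Fbln2 above 40.4%. Tnc itself, detected in 4 cells, was outside this filter, and its ranks rest largely on values below 1 FPKM. With 15 cells and this many genes, correlations of this size were usual for any gene. The 20 highest correlates named next had correlations of 0.71 to 0.89 with their gene without cell 13. Shares of rows at 0.5 or more were 3.68% for Postn, 3.63% for Tnc, 4.45% for Fn1 and 4.3% for Fbln2, close to each other. Shares at -0.5 or less were 3.82% for Postn, 3.99% for Tnc, 3.41% for Fn1 and 2.89% for Fbln2.

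The genes most like Postn were Lama2 (0.87), Lhfpl2 (0.85), Tacc3 (0.81), Pdlim1 (0.80) and Phf5a (0.79). Lhfpl2 and Tacc3 were each detected in 5 cells, so their ranks rest largely on values below the detection level. Lama2, a laminin chain of the basement membrane, ran from 0.37 in cell 2, which also had the least Postn, to 6.46 in cell 10. Its values in cells 9, 11 and 13, 6.23, 6.45 and 6.32, were close to each other and were matched by cells 8 and 10, so that Lama2 followed the order of Postn but not its step. Pdlim1, a cytoskeletal adaptor, was at 10.01, 7.79 and 8.33 in the very high cells, and at 8.10 and 7.66 in cells 1 and 5. Tacc3, a protein of the mitotic spindle, was at 9.80 in cell 13 and 4.24 in cell 9, but at 0.58 in cell 11, below cells 15, 14 and 10. The most opposed were Bfar (-0.88), Trnau1ap (-0.81) and Nol7 (-0.80).

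Highest with Tnc were Tjp1 (0.83), Arid4b (0.80), P4ha1 (0.79), Pde6d (0.78) and Naa35 (0.78), and most opposed were Larp4b (-0.88), Acadm (-0.83) and Fam13a (-0.81). Tnc reached 1 FPKM in 4 cells only, and these correlations were not repeated with its values below 1 FPKM tied. Tjp1 was detected in 5 cells and Fam13a in 6. P4ha1, a collagen prolyl hydroxylase, was at 6.77 in cell 10 and 6.46 in cell 9, but also at 6.06 and 5.99 in cells 1 and 2, where Tnc was below 1 FPKM. Acadm, an enzyme of fatty acid oxidation, was lowest in cells 9, 10 and 3, at 1.06, 2.23 and 2.95, the 3 cells with the most Tnc.

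Fn1 went with Abhd14a (0.90), Epdr1 (0.87), Col14a1 (0.86), Dguok (0.85) and Prg4 (0.85). Col14a1, a collagen of the fibril surface, was at 7.71, 8.36, 6.66 and 7.53 in the 4 cells with the most Fn1 (1, 7, 9 and 11), and 0.43 in cell 13. Prg4, which encodes the lubricating proteoglycan lubricin, was at 9.10, 8.83, 10.54 and 10.98 in those cells, and cell 10 reached 9.88. Most opposed were Hilpda (-0.89), Fabp4 (-0.83) and G0s2 (-0.82), all of which encode lipid-handling proteins of fat cells: Fabp4 carries fatty acids, and Hilpda and G0s2 inhibit the lipase that breaks down stored fat. Fabp4 was at 6.00, 6.29, 1.24 and 4.95 in cells 1, 7, 9 and 11, the 4 lowest of all, and at 13.69 in cells 4 and 13, where Fn1 was at 3.68 and 0.50. G0s2 was at 0.49 to 1.40 in the 4 cells with the most Fn1, and cells 8 and 10 were as low, at 0 and 0.62.

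Fbln2 went with Fkbp3 (0.83), St13 (0.80), Creb3l1 (0.79), Efs (0.77) and Rbm17 (0.77). Efs was detected in 6 cells only. Creb3l1, a transcription factor of the secretory pathway and of collagen production, was at 5.76, 5.74 and 5.52 in cells 15, 10 and 4, and at 0.54, 0.41 and 0 in cells 5, 9 and 13, 3 of the 4 cells with the least Fbln2. It was also at 0.31 in cell 3, where Fbln2 was at 7.35. Most opposed were Eif4a3 (-0.86), Srsf2 (-0.84) and Commd6 (-0.82). The first pair are RNA-processing genes.

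By list, the median correlations of matrix genes were highest with Fn1 for collagens, proteoglycans and fibulins. For 13 collagens the median correlation was 0.47 with Fn1 and 0.42 with Fbln2, against 0.07 with Postn and 0.16 with Tnc, beside medians over all rows of 0.01, 0.02, -0.01 and -0.01. With Fn1, 6 of the 13 collagens were at 0.5 or more, and with Fbln2 4 were, Col6a2 (0.70), Col6a1 (0.67), Col3a1 (0.65) and Col5a3 (0.51). Over all rows the shares at 0.5 or more were 4.45% with Fn1 and 4.3% with Fbln2, and 4.54% and 3.6% without cell 13. Besides Col14a1, those with Fn1 were Col16a1 (0.70), Col1a2 (0.68), Col1a1 (0.57), Col5a1 (0.53) and Col3a1 (0.52). Without cell 13 the median over the collagens was 0.42 with Fn1 and 0.31 with Fbln2, and 3 and 5 of the 13 were at 0.5 or more. Col1a1, Col5a1 and Col3a1 were then at 0.47, 0.42 and 0.45 with Fn1, and Col15a1 was opposed to it at -0.75. Of 9 proteoglycan genes 4 were at 0.5 or more with Fn1 (median 0.45), and of 16 fibulin and elastic fibre genes 5 were, led by Fbn1 (0.82), which encodes fibrillin-1, and Mfap2 (0.75). Without cell 13 these medians with Fn1 were 0.40 for proteoglycans and 0.22 for fibulins and elastic fibre genes, and 3 and 4 genes were at 0.5 or more. The proteoglycan gene Podn was then at -0.62. Among 12 other matricellular genes Thbs3 (0.81) and Ccn2 (0.65) went with Fn1, Thbs2 (0.75) with Fbln2 and Thbs4 (0.58) with Postn. Ccn5 was opposed to Postn (-0.52), and the median of these genes with Postn was -0.05. Without cell 13 the values were 0.77, 0.60, 0.69 and 0.63, and -0.43 for Ccn5, with a median of 0.04. Basement membrane genes had a median of 0.29 with Fbln2 and -0.27 with Tnc, and of 0.17 and -0.24 without cell 13. With Fbln2, 3 of 11 were at 0.5 or more, and 1 without cell 13. Committed preadipocyte genes had a median of -0.34 with Fn1, and 5 of 14 were at -0.5 or less: Fabp4, Pparg (-0.71), Cd36 (-0.68), Lpl (-0.62) and Aoc3 (-0.56), beside 3.41% of all rows. Without cell 13 the median was -0.59 and 8 of the 14 were at -0.5 or less, beside 4.73% of all rows. Of 12 Dpp4 progenitor genes 4 were at 0.5 or more with Fn1 (median 0.30, and 0.24 without cell 13), Sema3c at 0.61 and Dpp4 itself at 0.54. Without cell 13, 3 were at 0.5 or more, with Sema3c and Dpp4 both at 0.52.

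**Figure D5:**
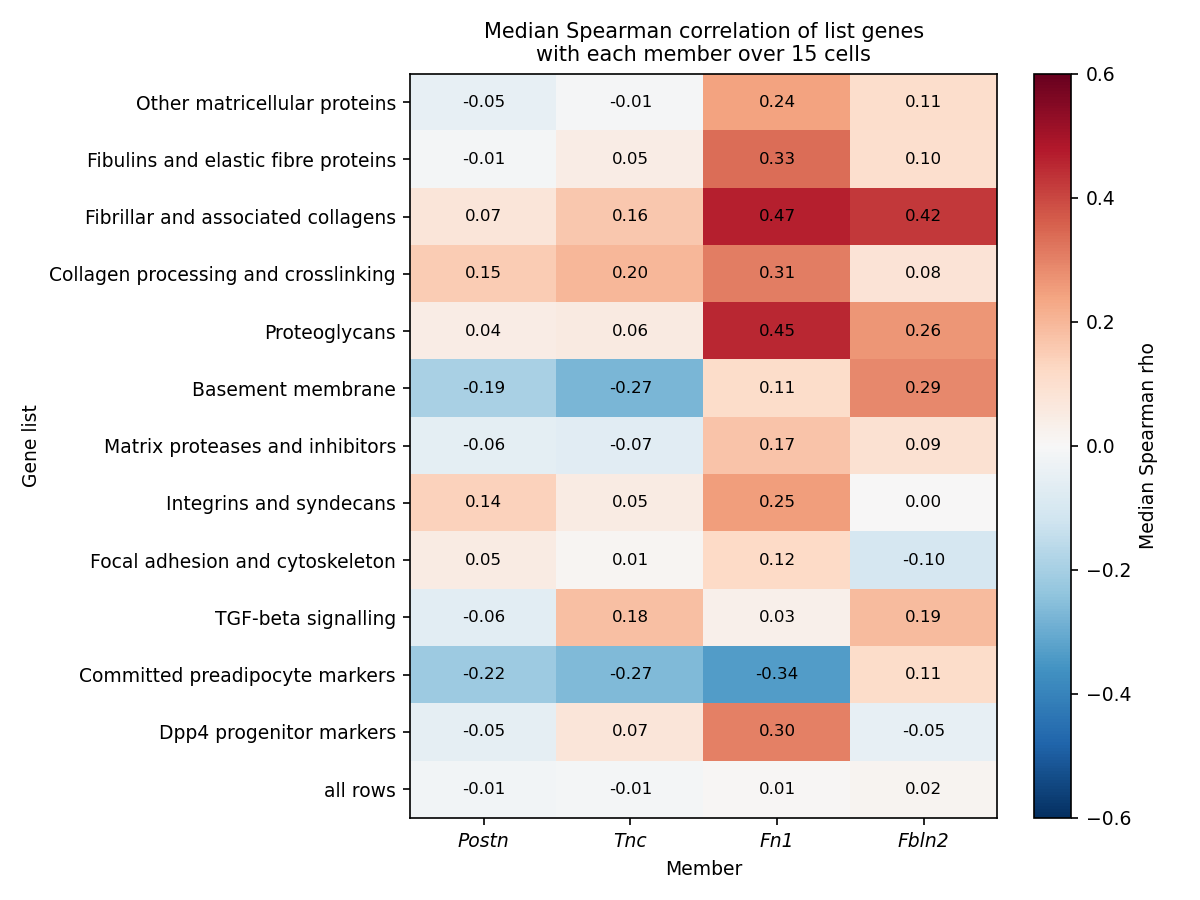
Colour and number give the median Spearman correlation over 15 cells between the genes of a list (rows) and Postn, Tnc, Fn1 or Fbln2 (columns), and the last row gives the median over all rows tested. Collagens stand at 0.47 with Fn1 and 0.42 with Fbln2, and committed preadipocyte genes at -0.34 with Fn1.

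By cell, the mean over the preadipocyte genes had a Spearman correlation of -0.75 with Fn1 (-0.78 without cell 13), and the mean over the Dpp4 progenitor genes one of 0.53 (0.42 without cell 13). Fbln2 had 0.64 with the mean over stromal progenitor genes (0.55 without cell 13). The number of rows at a cell's lowest value, which cannot be told apart from depth here, ran from 930 to 1974 and had a correlation of 0.54 with Postn, 0.08 with Tnc, 0.08 with Fn1 and 0.03 with Fbln2. With Postn it was 0.60 without cell 13. Its part in the order of the Postn values was not tested.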

How the data were processed

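RNA of 15 single Tomato+ cells was turned into libraries with Nextera XT after SMART-Seq v4 3′ DE amplification, per the labels' protocols. The submitters' processing notes name TopHat2, Cufflinks and GRCm38 without versions. The deposited table gave 8446 rows (8441 distinct identifiers, 8431 matched to a table of gene names). The authors' deposited values are on a log2 scale, log2(FPKM + 1): they end at 13.69, and their mean sum per cell is 592948 FPKM read as log2 and 12675749 read as natural logarithms. Sorted columns differed by at most 0.0354 above a value of 0.2, so they were quantile-normalized. No label states the logarithm, the normalization or the row filter. Thresholds in FPKM were applied on the deposited scale. The values hold no counts, so depth is unknown. Of the columns 18 were empty and 0 columns of sample values were left unused.

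The 4 genes and 25 gene lists (316 genes, 233 with a row) were chosen with earlier results of these data known. Cells with very high Postn lie above the largest gap that leaves at least 2 cells above and 5 below, and the top 5% of rows as a limit for Postn gave the same cells. Differences of medians used rows detected in at least 3 cells, and correlates those in at least 5. Named were, for each gene, the 5 highest and 3 lowest correlates (predicted, ribosomal protein and small RNA genes left out), the 5 largest differences without overlap in each direction, and called or highest members of the lists. The calculations were tested on simulated data. Alternatives were a limit of 5 FPKM, detection in at least 8 cells or no filter, Pearson correlation, a pseudocount of 10, a difference of 3, rescaled cells, length multiplied back, and cells left out. RefSeq promoter windows were matched by symbol for 3 of the 4 genes. Python 3.11.15, pandas 2.3.3, NumPy 2.4.6, SciPy 1.17.1 and matplotlib 3.10.9 were used.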

Additional observations from a re-analysis of the deposited data

How the results depend on the processing

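Of 348 alternative values for 21 results, 298 stayed within the spread set for them and 50 did not. Some of these could hardly differ, so the count is no measure of stability. Rescaled cells gave the main values again, since the columns were already quantile-normalized. A pseudocount of 10 cannot change a Spearman correlation. A median counted as kept where it moved by less than the SD of the gene over the cells. The correlations of Postn with Fn1 and of Fn1 with Fbln2 changed sign under some alternatives, as given here. Limits are the 15 cells of 1 sample, unknown depth and, for Tnc, 11 cells below 1 FPKM. At 5 FPKM, 10 cells detected Postn. The correlation of Postn and Fn1 was -0.0879 without the 2 cells farthest from the Postn median, and that of Tnc and Fbln2 was -0.0733 with values below 1 FPKM tied at 0, an alternative chosen after seeing the data. The cause was not tested.

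The correlates of single genes were the least stable. Of the 10 highest, by Pearson correlation 4 were kept for Postn, 1 for Tnc and 0 for Fbln2. With detection in at least 8 cells 5 were kept for Postn, and with no filter 2 for Postn and 4 for Tnc. Without cells 5 and 13, high in mural genes, 5 were kept for Postn, 2 for Tnc, 6 for Fn1 and 2 for Fbln2. Without cells 1, 11 and 14, which had the most rows at their lowest value, 2 were kept for Postn, 4 for Tnc, 3 for Fn1 and 6 for Fbln2. Leaving out 1 cell at a time kept 4 to 8 for Postn, 3 to 8 for Tnc, 6 to 10 for Fn1 and 4 to 9 for Fbln2.

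In the very high Postn cells, genes called higher numbered 714 with a difference of 3, 659 with detection in at least 8 cells and 383 with a pseudocount of 10, against 1226. Genes called lower numbered 376 with a difference of 3, 663 with detection in at least 8 cells and 209 with a pseudocount of 10, against 690. Leaving out 1 cell at a time gave 1201 to 1449 higher and 604 to 770 lower. The correlation then ran from 0.62 to 0.77 for Postn and Tnc, from 0.09 to 0.43 for Postn and Fn1, from -0.54 to -0.18 for Postn and Fbln2, from 0.07 to 0.39 for Tnc and Fn1, from -0.60 to -0.32 for Tnc and Fbln2, and from -0.17 to 0.21 for Fn1 and Fbln2. Medians ran from 3.44 to 3.91 for Postn, 0.06 to 0.15 for Tnc, 4.77 to 5.59 for Fn1 and 8.34 to 8.66 for Fbln2. No paired analysis was possible because the cells form 1 group and no test was made.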
